A study of Mus musculus with 24 samples.

Results

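The 10 aldehyde dehydrogenase genes Aldh1a1, Aldh1a2, Aldh1a3, Aldh1a7, Aldh2, Aldh3a1, Aldh3a2, Aldh3b1, Aldh3b2 and Aldh1l2 were followed across 24 BURP bladder tumors. They were chosen by gene name, with earlier results of these data known, and were 10 of the 53465 genes counted by RNA-seq. Each was found once in the table, and all 10 passed the filter on low counts in at least 1 comparison. BURP tumor lines were raised from bladder tumors that N-butyl-N-(4-hydroxybutyl)-nitrosamine (BBN) induced in C57BL/6NTac mice. BBN was given at 0.1% in drinking water from 8 weeks of age, for up to 36 weeks. The tumors were then passed as subcutaneous allografts through sex-matched C57BL/6 hosts with an intact immune system, so that the RNA of a tumor includes that of host cells.

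The labels name the line of each tumor and give 3 tumors for each of 8 lines. Sex and subtype of the lines were taken from the study. There are 6 basal/squamous (Ba/Sq) lines. The male ones are BURP-18BaSq, BURP-17BaSq and BURP-12BaSq, and the female ones are BURP-21BaSq, BURP-24BaSq and also BURP-25BaSq. The stroma-rich line BURP-16SR and the neuroendocrine-like line BURP-19NE are male. Every line was exposed to BBN, no group carries an engineered allele, and no normal bladder was analysed here. All tumors of a line descend from the tumor of 1 mouse, so that a line is 1 donor. Whether any sequenced tumor came from a cisplatin-treated host is not stated. Where Ba/Sq lines were pooled, against another line or by sex, no term for line was fitted, and tumors of a donor counted as separate samples. Those p-values rest on a spread that joins differences between lines with those between tumors of a line. In the other comparisons p-values measure the spread between tumors of the same line. None of them measures the spread between donors alone.

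Total counts ran from 9295708 to 25370320 per tumor. Levels are CPM, which are counts scaled to a common library size by TMM, and 3 counts, taken as the lowest level a tumor could show, were worth 0.110 to 1.28 CPM. Counting error alone is covered by these floors and by the counting intervals given for ratios. Tumor C102-M30 of BURP-25BaSq stood apart, because 1 ribosomal RNA gene took 61.9% of its counts against 0.180% to 1.85% in the other tumors, which gave it the highest floor. The RNA of tumor C102-M1, labelled BURP-25BaSq, resembled another line. Over 21383 genes its log2 CPM correlated at r = 0.965 to 0.974 with the 3 BURP-21BaSq tumors and at 0.881 to 0.904 with the other BURP-25BaSq tumors. It was kept as labelled, and results that rest on both tumors are given with and without them. Epithelial markers (Epcam, Cdh1, Krt8, Krt18, Krt5 and Krt14) summed to 6033 to 11869 CPM in the 18 Ba/Sq tumors, to 214 to 490 CPM in BURP-16SR and to 141 to 213 CPM in BURP-19NE, where Epcam was at 0 counts in all 3 tumors. The labels call all tumors bladder allografts, and epithelial marker RNA was scarce in the last pair of lines. In bulk RNA, fewer cells of a type and less RNA per cell cannot be told apart.

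Aldehyde dehydrogenases oxidize aldehydes to carboxylic acids with NAD+ or NADP+ as the electron acceptor. ALDH1A enzymes make retinoic acid from retinaldehyde, and the urothelium depends on retinoic acid for its normal differentiation, since vitamin A deficiency turns it squamous. ALDH2 clears acetaldehyde in mitochondria, ALDH3 enzymes act on aromatic and lipid-derived aldehydes, and ALDH1L2 is a mitochondrial enzyme of folate metabolism. ALDH activity is widely used as a marker of stem-like tumor cells, and ALDH1A1 and ALDH3A1 inactivate the activated form of cyclophosphamide.

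Some of these genes are recent duplicates, and the sequences below show how little separates their reads. On GRCm38, Aldh1a1 lies at chr19:20492715-20643465 on the plus strand and Aldh1a7 at chr19:20692953-20727562 on the minus strand. Aldh1a7 is a rodent copy of Aldh1a1 with little activity on retinaldehyde. The coding sequences of both are 1503 bases long and 91.6% identical. A stretch of 60 bases in coding exon 2 of each, at chr19:20610937-20610996 and chr19:20726979-20727038, is printed with the 5 bases that differ in capitals.

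Aldh1a1: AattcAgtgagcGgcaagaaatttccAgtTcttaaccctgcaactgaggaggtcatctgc

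Aldh1a7: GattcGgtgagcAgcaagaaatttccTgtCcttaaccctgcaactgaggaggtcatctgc

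Distinct 50-base stretches were compared between genes in the transcript of each with the longest coding sequence. Of those of Aldh1a1, 7.53% were also in Aldh1a7, so that most but not all reads of this length from that transcript can be placed. In 29.2% of tumors the estimated count of each was not a whole number, which shows that reads were divided between genes. Likewise Aldh3b2, at chr19:3972328-3981646 on the plus strand, stands next to Aldh3b3 at chr19:3958645-3972103, which is 89.7% identical in coding sequence and shares 23.5% of the 50-base stretches of Aldh3b2. Exon 8 of both, at chr19:3980080-3980139 and chr19:3966446-3966505, shows 5 differences in 60 bases.

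Aldh3b2: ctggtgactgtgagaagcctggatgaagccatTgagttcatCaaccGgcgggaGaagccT

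Aldh3b3: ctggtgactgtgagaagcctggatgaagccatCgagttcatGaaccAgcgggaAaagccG

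Counts of Aldh3b2 were not whole in 54.2% of tumors, those of Aldh3b1 in 29.2% and those of Aldh2 in 12.5%. These shares do not give how many reads were divided, so that the size of the resulting error is not known for these genes or for Aldh1a1 and Aldh1a7. Aldh3b1, at chr19:3913491-3929808 on the minus strand, is 83.1% identical to Aldh3b2. Aldh1a1 and Aldh1a7 are also alike before a start of transcription. RefSeq lists 2 promoters of Aldh1a1, one at the 5′ end of the gene as annotated above (chr19:20492333-20492632), which is not printed, and one at a start inside it. The 120 bases before the inner start of Aldh1a1 and before the start of Aldh1a7 are printed 5′ to 3′ with differing bases in capitals. They lie at chr19:20601848-20601967 on the plus strand and chr19:20727557-20727676 on the minus strand in GRCm38.p6 (RefSeq). By mean, the RNA of both genes was lowest in BURP-19NE, but so was that of Aldh1a3, Aldh3b1 and Aldh3b2. Which start of Aldh1a1 these tumors used, and any part of the promoters in the levels, was not tested.

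Aldh1a1 promoter: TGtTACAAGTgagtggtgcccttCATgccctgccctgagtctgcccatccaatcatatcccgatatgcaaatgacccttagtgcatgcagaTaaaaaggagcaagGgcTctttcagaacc

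Aldh1a7 promoter: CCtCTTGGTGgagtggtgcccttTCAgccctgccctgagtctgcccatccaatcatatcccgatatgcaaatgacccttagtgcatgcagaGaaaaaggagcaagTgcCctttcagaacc

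Of these 120 bases 105 were identical, or 87.5%. Both held CCAAT once, searched on both strands, a common element found in 37.4% of 32851 promoters of 300 bases. Aldh1a2 and Aldh1a3 were 68.8% and 67.4% identical to Aldh1a1 in coding sequence and shared none of its 50-base stretches. Aldh2 and Aldh1l2 were not aligned with other genes, so that near copies of them were not looked for. Aldh1a2 lies at chr9:71215789-71296243 (plus), Aldh1a3 at chr7:66390890-66427517 (minus), Aldh2 at chr5:121566027-121593824 (minus) and Aldh1l2 at chr10:83487450-83534140 (minus). Aldh3a1 at chr11:61207537-61218421 (plus) and Aldh3a2 at chr11:61223417-61267464 (minus) are neighbours, but their coding sequences are only 67.2% identical and share none of the 50-base stretches. Aldh1l2 shares 1056 exon bases with D10Wsu102e on the opposite strand. The library kit marked strand, but whether strand was used in counting is not given in the sources used here, and the Aldh1l2 count was not whole in any tumor.

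The member that led in most Ba/Sq tumors was not the one that led in BURP-16SR and BURP-19NE, each of them 1 donor. Per length, in CPM per kb of exon, Aldh2 was the highest of the 10 in all 3 BURP-16SR and all 3 BURP-19NE tumors, with 57.7% to 71.8% of their sum. Aldh1a3 held the first place in 13 of the 18 Ba/Sq tumors. Its mean share was 61.2% ± 8.65 (SD, n = 3) in BURP-17BaSq, 47.7% ± 11 in BURP-24BaSq and 36.2% ± 10.8 in BURP-12BaSq, against 1.01% ± 0.0842 in BURP-19NE. The mean share of Aldh1a3 was 31.9% ± 13.0 in BURP-21BaSq and 26.2% ± 24.4 in BURP-25BaSq. In BURP-18BaSq it was 22.8%, under the 23.8% of Aldh3a2. In the other 5 Ba/Sq tumors Aldh3a1, Aldh3a2, Aldh1a7, Aldh2 and Aldh1l2 each came first once. Aldh2 led in C102-M3 and Aldh1l2 in C102-M30, so that in BURP-25BaSq Aldh1a3 led only in C102-M1, the tumor that resembled BURP-21BaSq. The sum itself ran from 13.4 CPM per kb in tumor C148-M3 of BURP-18BaSq to 164 CPM per kb in tumor P4 of BURP-21BaSq.

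**Figure D1:**
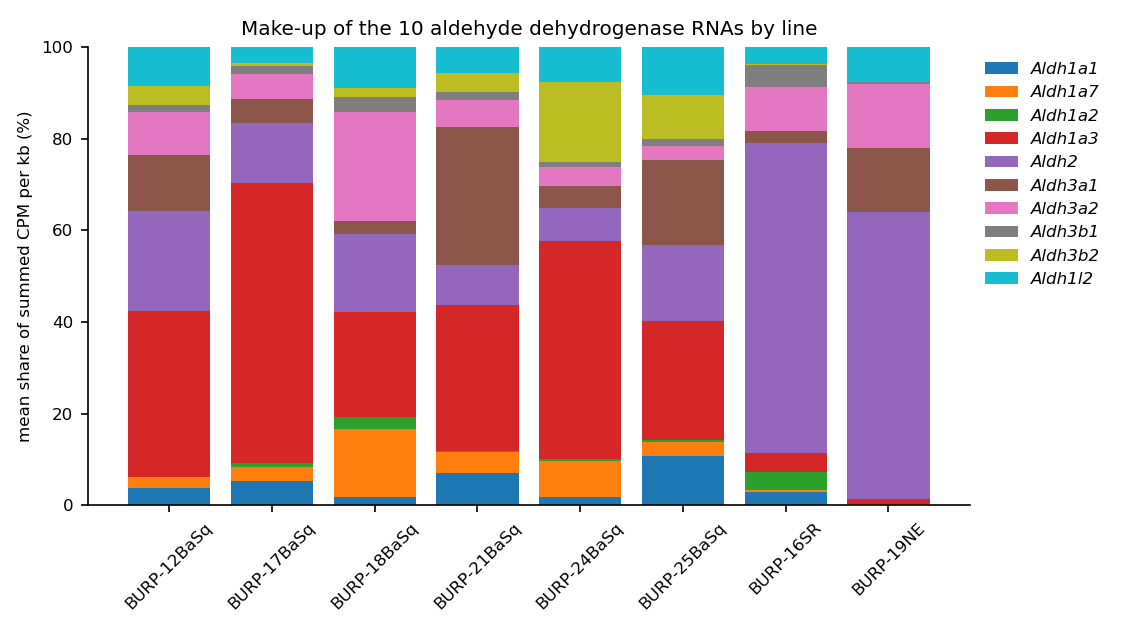
Mean share of each of the 10 genes in their summed CPM per kb of exon (%, stacked bars, 3 tumors per line), with the Ba/Sq lines first. Aldh2 fills 67.6% of the bar of BURP-16SR and 62.5% of that of BURP-19NE, and Aldh1a3 is the largest piece in BURP-17BaSq at 61.2%.

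**Figure D2:**
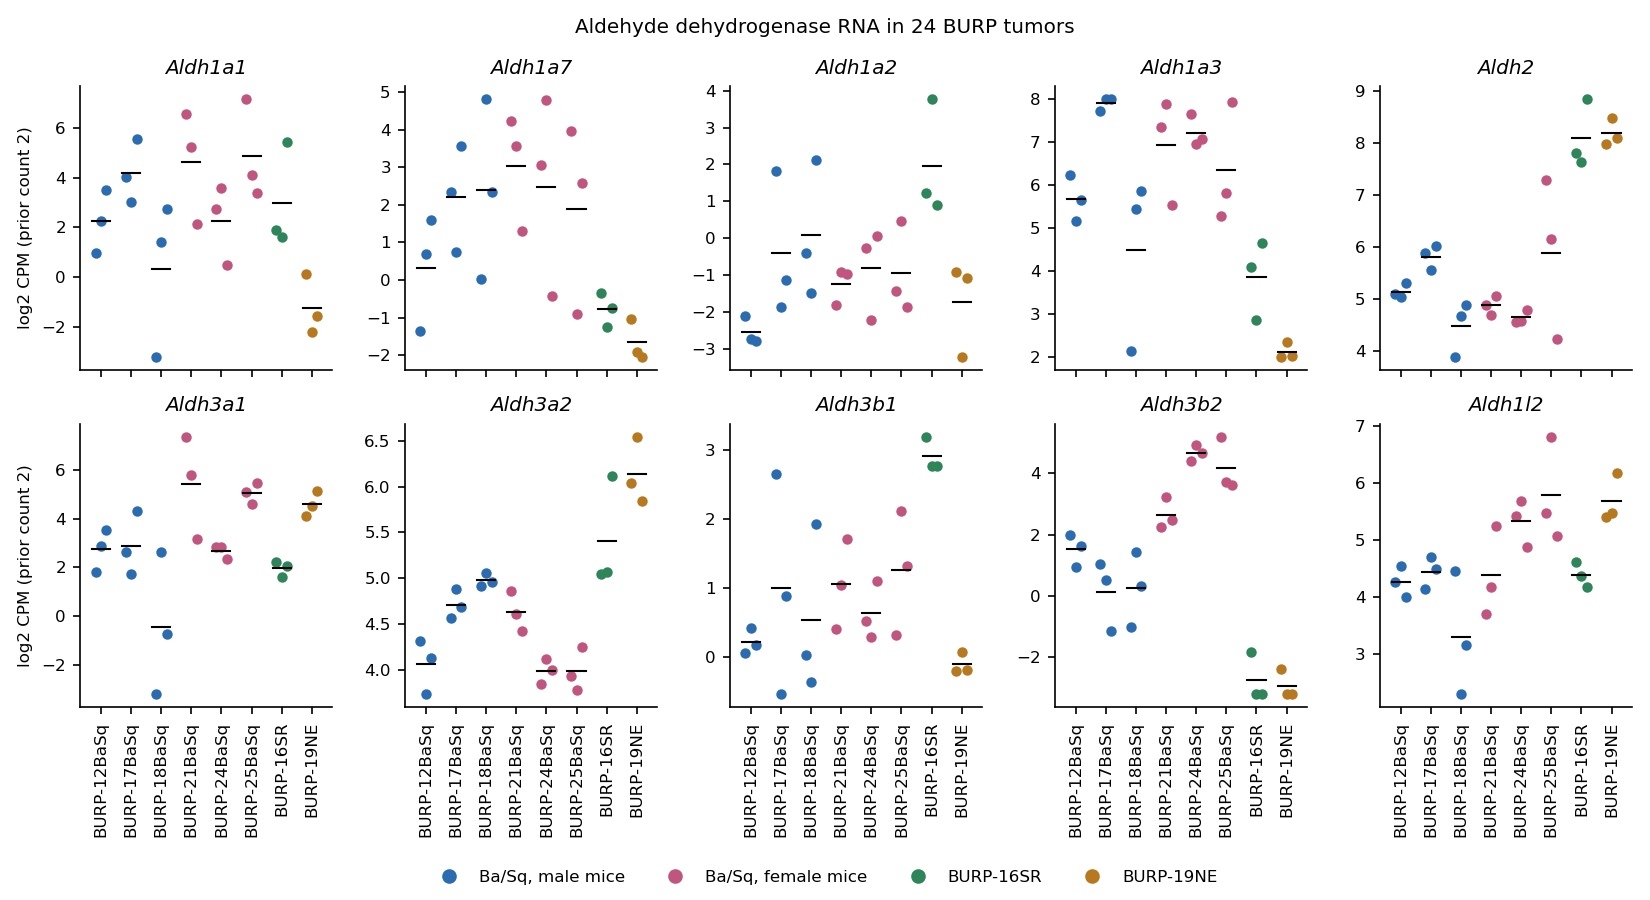
log2 CPM (prior count 2) of each gene in every tumor (points), with the mean of each line as a bar, for 8 lines of 3 tumors. Aldh2 stands higher in BURP-16SR and BURP-19NE than in every Ba/Sq tumor, and Aldh3b2 is at or under 2 counts in both lines.

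Of the enzymes that make retinoic acid, Aldh1a3 was high in the Ba/Sq lines and low in BURP-16SR and BURP-19NE, Aldh1a1 was low in BURP-19NE, and Aldh1a2, the enzyme of the embryonic mesoderm, was near the floor outside BURP-16SR and single tumors. Aldh1a3 measured 212, 257 and 255 CPM in the tumors of BURP-17BaSq, the line with the highest mean. They did not overlap those of the next line by mean, BURP-24BaSq. Tumor P4.2 of BURP-21BaSq (237 CPM) and C102-M1 of BURP-25BaSq (245 CPM) fell within their range. BURP-24BaSq followed with 200.3, 124 and 133 CPM and BURP-21BaSq with 163, 237 and 46.2 CPM. These 2 lines overlapped each other and BURP-25BaSq.

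In BURP-25BaSq Aldh1a3 measured 38.5 CPM in C102-M3 and 56.6 CPM in C102-M30, but 245 CPM in the doubtful C102-M1. BURP-12BaSq had 75.8, 35.6 and 50.3 CPM. BURP-18BaSq had 4.31, 43.4 and 58.4 CPM, so that tumor C148-M3 fell among the values of BURP-19NE. BURP-16SR was lower with 16.9, 7.11 and 25.2 CPM, and BURP-19NE lowest with 3.91, 4.95 and 3.95 CPM.

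Aldh1a1 varied far more between tumors of a line than Aldh1a3 did. It measured 146, 17.4 and 10.3 CPM in C102-M3, C102-M30 and C102-M1 of BURP-25BaSq. BURP-21BaSq had 95.5, 38.2 and 4.32 CPM, and BURP-17BaSq 16.1, 8.11 and 47.8 CPM. Every line overlapped its neighbour in the order of means, down to BURP-18BaSq, where C148-M3 had 0 counts and the others 2.59 and 6.52 CPM.

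BURP-12BaSq held 1.86, 4.69 and 11.3 CPM of Aldh1a1 and BURP-24BaSq 6.60, 11.8 and 1.27 CPM. In BURP-16SR tumor P5 had 43.2 CPM, while the other tumors had 3.60 and 2.97 CPM. BURP-19NE had 0.976, 0.105 and 0.227 CPM, or 23, 2 and 5 counts, and lay under all Ba/Sq tumors but C148-M3. The first of these values is from C80-M1, a tumor that held 525 CPM of skeletal muscle markers (Acta1, Ckm, Myh4, Mylpf and Tnnt3) against 2.79 and 4.81 CPM in the others of the line. C80-M1 also had the most Aldh1a7, Aldh1a2 and Aldh3b2 counts of the line, and the part of muscle RNA in them was not tested. The copy Aldh1a7 was also lowest in BURP-19NE, at 0.382, 0.158 and 0.136 CPM, and in BURP-16SR, at 0.685, 0.313 and 0.491 CPM.

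In the Ba/Sq tumors Aldh1a7 ran from 0.284 to 28.1 CPM with a median of 4.97. Its highest tumors were C149-M3 of BURP-18BaSq at 28.1 CPM and C81-M30 of BURP-24BaSq at 27.7 CPM, and every line overlapped the next. Aldh1a2 measured 2.23, 13.6 and 1.75 CPM in BURP-16SR. Beyond it only P4 of BURP-18BaSq, at 4.22 CPM, C152-M1 of BURP-17BaSq, at 3.4 CPM, and C102-M30, at 1.28 CPM or 3 counts, exceeded 1 CPM. It was at or under 3 counts in 9 of the 18 Ba/Sq tumors.

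Aldh2 split the lines more cleanly than any ALDH1A gene. It measured 224, 199 and 461 CPM in BURP-16SR and 254, 357 and 274 CPM in BURP-19NE, and every one of these tumors was above all 18 Ba/Sq tumors. In the Ba/Sq tumors it ran from 14.8 to 156 CPM with a median of 31.1. Most of the upper part of this range came from BURP-25BaSq, where it measured 156 CPM in C102-M3, 71.0 CPM in C102-M30 and 18.7 CPM in C102-M1. Of the other Ba/Sq lines BURP-17BaSq was highest, at 58.9, 46.9 and 64.6 CPM.

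The ALDH3A neighbours followed different patterns. Aldh3a2, the microsomal fatty aldehyde dehydrogenase that is lost in Sjögren-Larsson syndrome, measured 65.5, 93.3 and 57.3 CPM in BURP-19NE and 32.8, 33.5 and 69.3 CPM in BURP-16SR. It stayed between 13.2 and 33.3 CPM in the Ba/Sq tumors, with a median of 20.6. Within them BURP-18BaSq was highest, at 30.2, 33.3 and 30.9 CPM, and its tumors did not overlap those of the next line, BURP-17BaSq.

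Aldh3a1, an abundant enzyme of the cornea and stomach, peaked in BURP-21BaSq with 166, 55.2 and 8.79 CPM, a wide range for tumors of 1 line. BURP-25BaSq had 33.9, 24.2 and 43.7 CPM and BURP-19NE 17.4, 22.9 and 35.0 CPM. It was low in BURP-16SR, at 4.54, 2.97 and 4.07 CPM, and not detectable at this depth in C148-M3 of BURP-18BaSq, which had 0 counts where 3 would have been worth 0.392 CPM. The other tumors of BURP-18BaSq had 6.19 and 0.493 CPM. BURP-12BaSq had 3.45, 7.25 and 11.5 CPM, BURP-17BaSq 6.15, 3.23 and 19.6 CPM, and BURP-24BaSq 7.06, 7.16 and 5.01 CPM.

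ALDH3B enzymes oxidize lipid-derived aldehydes of medium and long chain at membranes. Aldh3b1 was highest in BURP-16SR, at 9.08, 6.72 and 6.73 CPM, and did not overlap the next line. Only C152-M1 of BURP-17BaSq came near, at 6.19 CPM, and the 18 Ba/Sq tumors ran from 0.579 CPM with a median of 1.28. BURP-19NE had 0.764, 0.947 and 0.772 CPM.

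Aldh3b2 had the opposite distribution. It was highest in BURP-24BaSq, at 20.9, 30.3 and 25.3 CPM, and in BURP-25BaSq, at 36.6, 13.2 and 12.1 CPM, followed by BURP-21BaSq at 4.63, 9.34 and 5.46 CPM. The male Ba/Sq lines were lower, with 3.89, 1.81 and 2.97 CPM in BURP-12BaSq, 0.392, 2.59 and 1.15 CPM in BURP-18BaSq and 1.93, 1.32 and 0.347 CPM in BURP-17BaSq. In BURP-16SR and in BURP-19NE 1 tumor each had 2 counts and the other tumors had 0.

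Aldh1l2, which oxidizes the formyl group of 10-formyltetrahydrofolate to CO2 in mitochondria, was not called in either comparison with the Ba/Sq tumors. Its order by mean ran from BURP-25BaSq, with 44.2, 112 and 33.4 CPM, and BURP-19NE, with 41.9, 44.1 and 71.5 CPM, to BURP-18BaSq, with 21.7, 4.77 and 8.76 CPM. Each line overlapped the next. BURP-25BaSq held the first place through C102-M30, the tumor rich in ribosomal RNA, while its other tumors lay within the range of BURP-24BaSq. BURP-24BaSq had 42.7, 50.9 and 29.2 CPM, and BURP-16SR 24.2, 20.5 and 18 CPM.

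Against the 18 Ba/Sq tumors, BURP-19NE had more Aldh2 and Aldh3a2 and less Aldh1a3, Aldh1a1, Aldh1a7 and Aldh3b2. Counts were tested with edgeR's quasi-likelihood test over all genes with Benjamini-Hochberg adjustment. A gene was called where the adjusted p was under 0.05 and the log2 fold change exceeded 1 in size. So 6 of the 10 genes were called, 2 higher and 4 lower, where 24.3% of all 20995 genes tested were called, 9.33% higher and 15% lower. Aldh2 was 2.82 ± 0.40 (SE) higher on the log2 scale (edgeR adjusted p = 1.54e-05) and Aldh3a2 1.72 ± 0.23 higher (edgeR adjusted p = 7.50e-06). Aldh1a3 fell by 4.85 ± 1.01 (edgeR adjusted p = 0.000885), Aldh1a7 fell by 5.14 ± 1.48 (0.0106) and Aldh1a1 fell by 5.73 ± 1.85 (0.0210).

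Aldh3b2 had 2 counts in all 3 BURP-19NE tumors together, and its Ba/Sq level was 313 times higher (95% counting interval 86.6 to 2582, edgeR adjusted p = 0.00315). BURP-19NE is a male line, while the Ba/Sq level joins both sexes, with means of 1.82 CPM in male and 17.5 CPM in female tumors. The ratio against male Ba/Sq tumors alone would be smaller. Tumors of BURP-19NE and of the Ba/Sq lines did not overlap for Aldh2, Aldh3a2 and Aldh3b2, which is 3 of 10 genes where 18% of all genes tested did not overlap. For Aldh1a1 and Aldh1a3 the Ba/Sq tumor that overlapped was C148-M3 of BURP-18BaSq, and for Aldh1a7 it was C41-M3 of BURP-12BaSq. The log2 fold change was 0.82 ± 0.54 for Aldh1l2, 0.13 ± 1.14 for Aldh3a1, -1.24 ± 0.62 for Aldh3b1 and -1.46 ± 1.23 for Aldh1a2, and none of these was called.

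The calls of Aldh1a1 and Aldh1a7 were lost without C80-M3 or without C80-M30 of BURP-19NE. Without C80-M1, the tumor with muscle markers, Aldh1a1 fell by 7.14 and Aldh1a7 fell by 5.79, both still called, as was Aldh3b2, which then had 0 counts in the line. With counts summed per line, 1 line stood against 6, so that the fit had a single sample of BURP-19NE. Only the calls of Aldh2 and Aldh3a2 held there, and neither held when C102-M1 was moved to BURP-21BaSq. Leaving out C102-M1 and C102-M30 kept the same 6 calls.

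BURP-16SR also had more Aldh2 and less Aldh1a3, Aldh1a7 and Aldh3b2 than the Ba/Sq tumors, and it had more Aldh1a2, Aldh3b1 and Aldh3a2. The comparison shares its 18 Ba/Sq tumors with the one of BURP-19NE, so their likeness is no separate evidence. Here 7 of 10 genes were called, 4 higher and 3 lower, where 19.2% of 21028 genes tested were, 10.5% higher and 8.62% lower. Aldh2 was 2.85 ± 0.41 higher on the log2 scale (edgeR adjusted p = 2.85e-05), Aldh3b1 1.99 ± 0.47 higher (0.00375) and Aldh1a2 3.02 ± 0.86 higher (0.0134). Aldh3a2 was 1.09 ± 0.26 higher (edgeR adjusted p = 0.00435), close to the fold threshold.

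Aldh1a3 fell by 2.88 ± 0.91 (edgeR adjusted p = 0.0239) and Aldh1a7 fell by 4.0 ± 1.38 (0.0379). The Ba/Sq level of Aldh3b2 was 187 times that of BURP-16SR, which held 2 counts in 3 tumors (95% counting interval 51.9 to 1548, edgeR adjusted p = 0.00845). BURP-16SR is also a male line, so that this ratio too is against Ba/Sq tumors of both sexes. Tumors of BURP-16SR and of the Ba/Sq lines did not overlap for Aldh2, Aldh3b1 and Aldh3b2, where 11.4% of all genes tested did not. Aldh1a1 (-0.52 ± 1.29), Aldh3a1 (-2.52 ± 1.43) and Aldh1l2 (-0.46 ± 0.59) were not called.

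Several of these calls rested on single tumors. Aldh1a2 was 1.44 higher and not called without C74-MNT, and Aldh3a2 was 0.57 higher and not called without P5 of BURP-16SR. Aldh1a3 and Aldh1a7 were not called without any 1 of the 3 BURP-16SR tumors. Without C102-M1 and C102-M30 Aldh3a2 dropped to 0.97, under the fold threshold, and the other 6 calls held. With counts summed per line, where the fit had a single sample of BURP-16SR, none of these calls held.

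**Figure D3:**
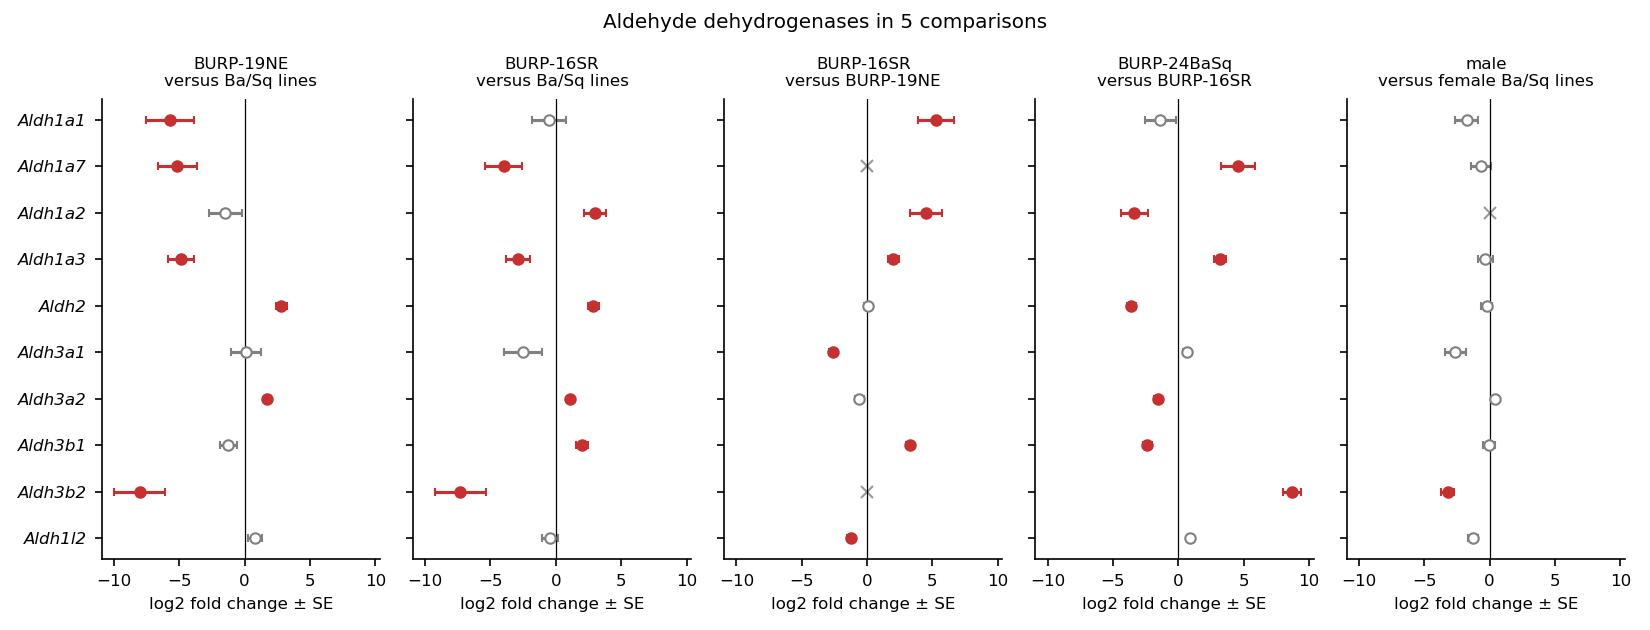
log2 fold change ± SE of the 10 genes in 5 comparisons (edgeR), filled red where called, open grey where not, and a grey cross at 0 where not tested. Aldh2 lies to the right in both comparisons with the Ba/Sq lines (2.82 and 2.85), and Aldh3b2 lies farthest to the left in both, as a fitted value that rests on 2 counts in each of BURP-19NE and BURP-16SR.

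Marker RNA of fibroblasts and endothelium moved with 2 of the genes that were higher in BURP-16SR, and whether host or tumor cells made it was not tested. Fibroblast markers (Col1a1, Col1a2, Col3a1, Dcn, Lum, Pdgfra, Pdgfrb and Fap) summed to 7553, 20246 and 586 CPM in C73-M10, C74-MNT and P5, and to 203 to 9897 CPM in the Ba/Sq tumors with a median of 1083. None of the 8 markers was at 0 throughout a line. The tumor with most of this RNA, C74-MNT, had the most Aldh1a2, and the other tumors above 3 CPM of Aldh1a2 had 9897 and 5841 CPM of fibroblast markers. The correlation of log2 CPM of Aldh1a2 with the log2 sum was 0.741 over 24 tumors and 0.737 over the 18 Ba/Sq tumors. It was similar with the markers of smooth muscle (0.755), endothelium (0.707) and B and plasma cells (0.684) over the 24 tumors.

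Endothelial markers (Pecam1, Cdh5, Kdr, Tie1 and Emcn) summed to 170 to 279 CPM in BURP-16SR and to 23.2 to 295 CPM in the Ba/Sq tumors, again with none at 0 throughout a line. Aldh3b1 followed them at r = 0.883 over 24 tumors and 0.901 over the 18 Ba/Sq tumors, where it followed macrophage markers at 0.875. These points share library and depth, and the part of these cells in the differences was not tested. Aldh2 had r = 0.294 with fibroblast markers over 24 tumors. With the epithelial markers it correlated at r = -0.855 over 24 tumors, while within the 18 Ba/Sq tumors this was 0.0673.

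**Figure D4:**
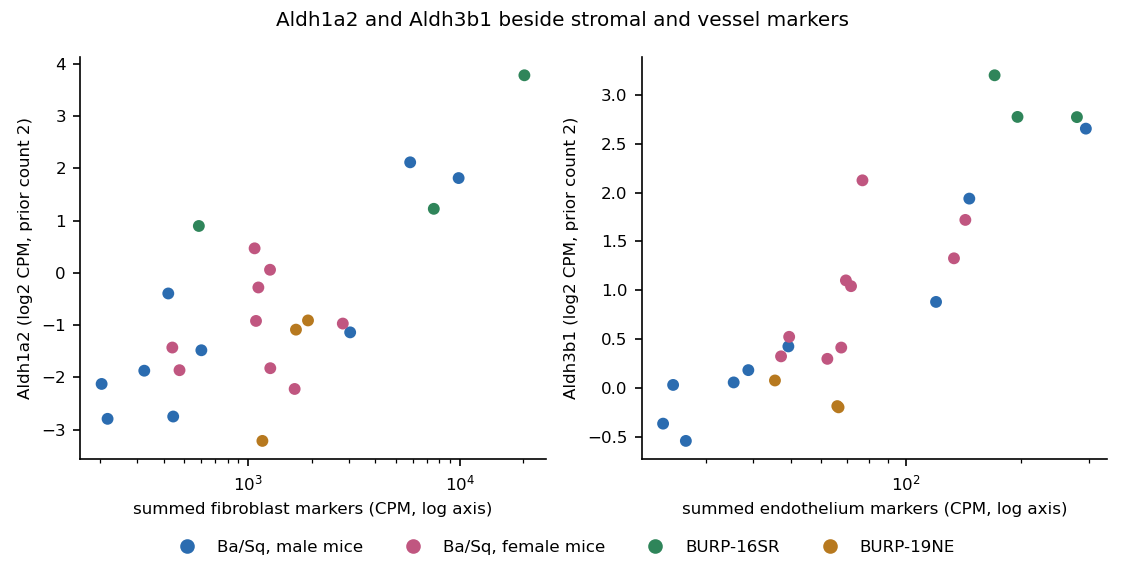
Aldh1a2 against summed fibroblast markers and Aldh3b1 against summed endothelial markers (horizontal log axes in CPM, vertical axes log2 CPM with prior count 2), 1 point per tumor. Both rise with the markers (r = 0.741 and 0.883 over 24 tumors), and the BURP-16SR tumors lie in the upper part of the plot of Aldh3b1.

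Between BURP-16SR and BURP-19NE, both low in epithelial markers, Aldh2 did not separate the lines (0.07 ± 0.33 higher in BURP-16SR, edgeR adjusted p = 0.895). Of 8 genes tested 6 were called, 4 higher and 2 lower, where 23.6% of 17556 genes were, 14.8% higher and 8.86% lower. Higher in BURP-16SR were Aldh1a1 by 5.24 ± 1.38 (edgeR adjusted p = 0.0277), Aldh1a2 by 4.51 ± 1.21 (0.0293), Aldh3b1 by 3.26 ± 0.29 (0.00104) and Aldh1a3 by 2.01 ± 0.44 (0.0152). Aldh3a1 fell by 2.62 ± 0.33 (edgeR adjusted p = 0.00250) and Aldh1l2 fell by 1.24 ± 0.26 (0.0134).

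All 6 had tumors that did not overlap, as had 51.8% of all genes tested with 3 tumors a side. Aldh3a2 was not called, at -0.60 ± 0.33. Aldh1a7 and Aldh3b2 did not pass the filter. The calls of Aldh1a1, Aldh1a2 and Aldh1a3 were lost without any 1 of the BURP-19NE tumors. On the side of BURP-16SR, Aldh1a2 was 2.92 higher and not called without C74-MNT, Aldh1a3 was not called without C73-M10, and Aldh1a1 was 2.93 higher and still called without P5. With C80-M30 left out only 2 members were called. Aldh3a1 and Aldh3b1 were called whichever tumor was left out.

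The study treated hosts of BURP-24BaSq and BURP-16SR with cisplatin, and the same pair was compared here. BURP-24BaSq is a female and BURP-16SR a male line, so that sex and line cannot be told apart in this pair. Of the 10 genes 7 were called, 3 higher and 4 lower, where 29.0% of 18283 genes tested were, 13.2% higher and 15.8% lower. Of the 10, 8 had tumors that did not overlap, where 53.6% had. BURP-24BaSq had more Aldh1a3 (3.17 ± 0.46, edgeR adjusted p = 0.00243) and more Aldh1a7 (4.55 ± 1.28, edgeR adjusted p = 0.0303). Its level of Aldh3b2 was 494 times that of BURP-16SR (95% counting interval 137 to 4082, edgeR adjusted p = 0.000245). It had less Aldh2 (-3.61 ± 0.35, edgeR adjusted p = 0.000479), Aldh3b1 (-2.38 ± 0.34, 0.00229), Aldh3a2 (-1.57 ± 0.31, 0.00768) and Aldh1a2 (-3.37 ± 1.05, 0.0423).

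Aldh1a1 (-1.37 ± 1.17) and Aldh3a1 (0.67 ± 0.29) were not called, and Aldh1l2 (0.90 ± 0.25, edgeR adjusted p = 0.0295) missed the fold threshold. Aldh1a2 lost its call without any tumor of the pair but P5, and Aldh1a7 without C73-M10 or C74-MNT. Aldh1a7 passed the filter in only 4 of the 6 tests with 1 tumor left out, so that in the rest it could not be called. The other 5 calls held whichever tumor was left out.

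Among the 6 Ba/Sq lines, 6 of the 10 genes differed (edgeR's quasi-likelihood test over 5 degrees of freedom, adjusted p under 0.05), where 50.5% of all 20523 genes tested did, so that a share of this size is near the background. The adjusted p was 0.000254 for Aldh3b2, 0.00155 for Aldh3a2, 0.00791 for Aldh3a1, 0.0170 for Aldh1l2, 0.0173 for Aldh2 and 0.0475 for Aldh1a1. Aldh1a2 (0.0570), Aldh1a3 (0.0635), Aldh3b1 (0.543) and Aldh1a7 (0.459) did not pass. Aldh1a3 passed, at 0.0242 and 0.00993, without the doubtful tumors or with C102-M1 as BURP-21BaSq. Aldh1l2 did not (0.0620) without those tumors, and C102-M30 alone was enough for that (0.0555). Aldh1a1 lost its call without any 1 of 12 of the 18 tumors, with adjusted p up to 0.0853.

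Part of this difference lay along the sex of the lines. Aldh3b2 was lower in the 9 tumors of male than in the 9 of female Ba/Sq lines, with a log2 fold change of -3.22 ± 0.49 (edgeR adjusted p = 0.00236), with male tumors from 0.347 to 3.89 CPM (median 1.81) and female tumors from 4.63 to 36.6 CPM (median 13.2). The groups did not overlap, which held for 0.463% of 17922 genes tested. It was the only 1 of 9 members tested that was called, where 2.31% of all genes were, 1.09% higher and 1.22% lower. Aldh3a1 fell short at -2.62 ± 0.79 (adjusted p = 0.0585), with male tumors from 0 to 19.6 CPM (median 6.15) and female tumors from 5.01 to 166 CPM (median 24.2), and Aldh1l2 at -1.25 ± 0.37 (0.0541).

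Aldh1l2 ran from 4.77 to 25.9 CPM (median 19.0) in male and from 12.9 to 112 CPM (median 37.8) in female tumors. The remaining genes were Aldh1a1 at -1.77 ± 0.88, Aldh1a7 at -0.68 ± 0.77, Aldh1a3 at -0.33 ± 0.56, Aldh2 at -0.24 ± 0.39, Aldh3b1 at -0.07 ± 0.45 and Aldh3a2 at 0.41 ± 0.19, none called, and Aldh1a2 did not pass the filter. The sign of Aldh2 turned without C102-M3 (0.28), and that of Aldh3b1 in 7 of 18 tests with 1 tumor left out.

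Aldh3b2 stayed called without any 1 tumor or line and without C102-M1 and C102-M30. With counts summed per line, 3 male lines against 3 female lines, its difference was -3.33 and its adjusted p 0.378. In that test edgeR called 0 of all genes, while 1388 had an unadjusted p under 0.05, Aldh3b2 among them (edgeR unadjusted p = 0.00105). No other tool was run on summed counts. DESeq2's Wald test on tumors called Aldh3a1 (adjusted p = 0.00631) and Aldh1l2 (0.0124) as well. Each sex was represented by 3 donors.

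**Figure D5:**
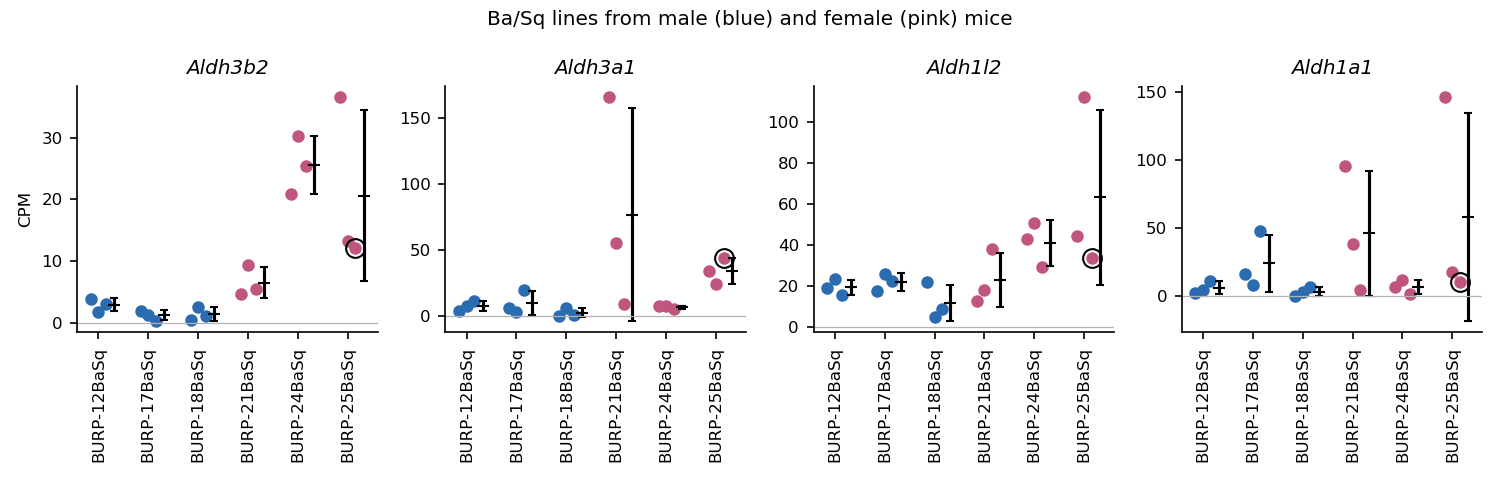
CPM of Aldh3b2, Aldh3a1, Aldh1l2 and Aldh1a1 in each tumor of the 6 Ba/Sq lines (points, male lines blue, female lines pink, C102-M1 circled), with the mean and SD of each line as a dash with whiskers. The female tumors of Aldh3b2 all lie above the male tumors (lowest 4.63 against highest 3.89 CPM), while the other genes overlap.

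The genes around the ALDH1A enzymes were counted over a list of 23 genes of retinoid metabolism. Against the Ba/Sq tumors, 11 of the 20 tested were called in BURP-19NE (24.3% of all genes), 2 higher and 9 lower, with a median log2 fold change of -2.65 over the list and -0.14 over all genes tested. Fabp5, which carries fatty acids and retinoic acid, fell by 8.02 ± 0.90 (edgeR adjusted p = 7.44e-07), from a mean of 383 to 1.47 CPM. The retinol dehydrogenase Dhrs9 fell by 7.13 ± 1.67 (edgeR adjusted p = 0.00250). Sdr16c5, another retinol dehydrogenase, and Lrat, which stores retinol as ester, had 0 counts in BURP-19NE (edgeR adjusted p = 0.0273 and 0.0464). Against a floor of 3 counts over the 3 tumors together, the Ba/Sq mean was at least 73.6-fold and 54.8-fold higher. For Sdr16c5 that mean came mostly from female tumors, with 6.65 CPM against 0.185 CPM in male tumors. Its ratio against male Ba/Sq tumors alone would be smaller.

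BURP-16SR had 7 of 20 called (19.2% of all genes), 2 higher and 5 lower, with a list median of -1.24 against -0.03. Crabp2, which carries retinoic acid to its receptors, fell by 5.42 ± 1.40 (edgeR adjusted p = 0.00707) and Fabp5 fell by 4.65 ± 0.76 (0.000107). Rdh10, which supplies retinaldehyde to the ALDH1A enzymes, was 1.57 ± 0.44 higher (edgeR adjusted p = 0.0122). BURP-24BaSq differed from BURP-16SR in 13 of 16 genes tested, 10 higher and 3 lower. Of all genes tested in this pair 29.0% were called, 13.2% higher and 15.8% lower. Crabp2 was 6.23 ± 0.58 higher in BURP-24BaSq (edgeR adjusted p = 0.000427). BURP-16SR exceeded BURP-19NE in all 6 genes called of 14 tested, where 23.6% of all genes were called, 14.8% higher. The 6 included Dhrs9, higher by 8.20 ± 0.64 (edgeR adjusted p = 0.000781), and the retinol transporter Stra6, by 4.79 ± 1.0 (0.0127). Cyp26b1, which degrades retinoic acid, was higher by 4.86 ± 0.30 (edgeR adjusted p = 0.000461). In male against female Ba/Sq lines Sdr16c5 and Dhrs9 were lower, at -5.14 ± 0.64 and -2.34 ± 0.62 (edgeR adjusted p = 0.000802 and 0.0329). They were 2 of 15 tested, where 2.31% of all genes were called.

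Around Aldh1l2, 18 genes of folate one-carbon metabolism and serine synthesis were all tested. In BURP-19NE 5 were called, 3 higher and 2 lower, or 27.8% against 24.3% of all genes. In BURP-16SR 2 were, both higher, or 11.1% against 19.2%, so that neither share stood above the background by much. Phgdh, the first enzyme of serine synthesis, was 3.08 ± 0.25 higher in BURP-16SR (edgeR adjusted p = 6.99e-09) and 1.10 ± 0.27 higher in BURP-19NE (0.00315). Gldc, of the glycine cleavage system, was 2.95 ± 0.98 higher in BURP-19NE (edgeR adjusted p = 0.0247), and Shmt1, the cytosolic serine hydroxymethyltransferase, fell by 1.15 ± 0.24 there (0.000908). Between the sexes edgeR called 0 of the 18, where 2.31% of all genes were called. Of the 18, 10 had an unadjusted p under 0.05, a count whose share over all genes is not given here.

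The aryl hydrocarbon receptor is a known inducer of Aldh3a1. Of 9 genes of its battery 7 were tested and 2 were called in BURP-19NE, both lower, or 28.6% against 24.3% of all genes, a share near the background. Ahr itself fell by 3.79 ± 0.59 (edgeR adjusted p = 4.21e-05), from a mean of 103 to 7.41 CPM, and Ugt1a6a, which conjugates phenols, fell by 2.48 ± 0.50 (0.000622). In BURP-16SR Ugt1a6a alone was called, and fell by 1.56 ± 0.45 (edgeR adjusted p = 0.0136). Between the sexes edgeR called 0 of 6 tested, where 2.31% of all genes were called. Of the 6, 2 had an unadjusted p under 0.05, again without the share over all genes.

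Of 11 further aldehyde dehydrogenase genes 9 were tested. Aldh7a1, an enzyme of lysine breakdown, was higher in BURP-19NE by 1.75 ± 0.38 (edgeR adjusted p = 0.00145) and in BURP-16SR by 1.11 ± 0.40 (0.0486). Aldh18a1, which makes the precursor of proline, was 1.5 ± 0.37 higher in BURP-19NE (edgeR adjusted p = 0.00383), and Aldh4a1, which breaks proline down, fell by 2.02 ± 0.55 (0.00704). Aldh18a1 was lower in male than in female Ba/Sq lines, at -1.08 ± 0.22 (edgeR adjusted p = 0.0131). Of 15 other enzymes that form or consume aldehydes 13 were tested, and 5 were called in BURP-19NE, 3 higher and 2 lower, or 38.5% against 24.3% of all genes. In BURP-16SR 2 were called, both higher, or 15.4% against 19.2%. The carbonyl reductase Cbr3 fell by 4.39 ± 0.62 in BURP-19NE (edgeR adjusted p = 1.57e-05), and Far1, which reduces fatty acyl-CoA to alcohol, fell by 1.68 ± 0.33 (0.000524). The aldehyde oxidase Aox1 was 1.79 ± 0.50 higher in BURP-19NE (edgeR adjusted p = 0.00868) and 1.86 ± 0.50 higher in BURP-16SR (0.00912), where the amine oxidase Aoc3 was 1.95 ± 0.58 higher (0.0183). Sgpl1, which releases a fatty aldehyde that Aldh3a2 oxidizes, was 1.37 ± 0.24 higher in BURP-19NE (edgeR adjusted p = 0.000131). Between the sexes edgeR called 0 of 12 of these enzymes, where 2.31% of all genes were called. Of the 12, 3 had an unadjusted p under 0.05, again without the share over all genes.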

How the data were processed

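RNA-seq of 24 BURP tumors was analysed, from paired-end libraries depleted of ribosomal RNA. Per the submitters' processing notes, reads were processed with CASAVA 1.8.2, aligned to GRCm38 with STAR 2.6.0a and counted with RSEM 1.3.1, and the authors deposited estimated counts per gene, not normalized. Of these expected counts 12.5% were not whole, as RSEM divides reads that match several genes, and they were rounded. Symbols, positions and exon lengths came from GENCODE's M21 annotation of GRCm38, a later release than the one used by the authors, in which 99.6% of identifiers were found.

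R 4.3.3, edgeR 4.0.16, limma 3.58.1 and DESeq2 1.42.0 were used. CPM were TMM-scaled over all 24 tumors. Each comparison was fitted apart (TMM, filterByExpr, glmQLFit, glmQLFTest), and a gene was called at a Benjamini-Hochberg adjusted p under 0.05 over all genes tested and an absolute log2 fold change above 1. Differences among the Ba/Sq lines were called on adjusted p alone. SE were derived from the fold change and its F. The fit was tested on simulated counts. Levels between genes were compared per kb of exon, and totals of 9295708 to 25370320 counts put the floor of 3 counts at 0.110 to 1.28 CPM.

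All 10 members were named, and further genes were taken from the up to 4 called genes of largest fold per list and comparison. A gene that this rule names is not reported here. The members and lists were chosen with earlier results of these data known. Alternatives were DESeq2, its size factors, other filters, 1 fit of all tumors, counts summed per line, and tumors or lines left out.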

Additional observations from a re-analysis of the deposited data

Results flagged for a closer look

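Each of the 10 genes was examined for an outlying tumor among the 9 male and among the 9 female Ba/Sq tumors, in CPM, with Dixon's test at its 95% critical value of 0.493. Of these 20 groups 5 held a tumor that stood apart, and all 5 were the highest tumor of the group. Chance flags about 1 in 20 groups of independent, normally distributed values. CPM are skewed and the 9 tumors of a group are 3 lines of 3, so that rate does not hold here.

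Aldh1a1 was 47.8 CPM in P4 of BURP-17BaSq, where the next male Ba/Sq tumor had 16.1 CPM. Aldh1a7 was 28.1 CPM in C149-M3 of BURP-18BaSq, against 11.8 CPM in the next. Among female tumors Aldh2 was 156 CPM in C102-M3 of BURP-25BaSq, against 71.0 CPM, and Aldh3a1 was 166 CPM in P4 of BURP-21BaSq, against 55.2 CPM. Aldh1l2 was 112 CPM in C102-M30 of BURP-25BaSq, against 50.9 CPM, in the tumor with 61.9% ribosomal RNA. These tumors belong to 4 lines, and none was apart for more than 1 gene.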

How the results depend on the processing

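No paired analysis was possible because the labels give each tumor a code such as C41-M3 or P4, and no number that pairs tumors of different lines, so no replicate block was fitted. Depth limited Aldh1a2 in most lines, Aldh3b2 in BURP-16SR and BURP-19NE, and Aldh1a1 and Aldh1a7 in BURP-19NE, where counts were few.

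Requiring 10 counts in every tumor left 4 to 7 members testable, and the number called fell to 3 for BURP-19NE, 3 for BURP-16SR, 4 for BURP-24BaSq against BURP-16SR and 3 among the Ba/Sq lines, since fewer genes were tested. Counts summed per line gave 2 calls for BURP-19NE, 0 for BURP-16SR and 0 for sex, and with C102-M1 as BURP-21BaSq 0 in all 3 comparisons, over fewer samples. For sex, DESeq2's Wald test and 1 fit of all 24 tumors gave 3 calls each, and the cause was not tested. Filtering at 10 counts removed Aldh3b2 there and called Aldh1l2. Leaving out C102-M1 and C102-M30, an alternative chosen after seeing the data, gave 6, 6, 1 and 6 calls for BURP-19NE, BURP-16SR, sex and the Ba/Sq lines.

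Leaving out 1 tumor moved the number called to 4 to 6 for BURP-19NE, 4 to 7 for BURP-16SR, 2 to 7 for BURP-16SR against BURP-19NE (2 without C80-M30), 5 to 7 for BURP-24BaSq against BURP-16SR, 1 to 2 for sex (1 to 2 also with a line left out) and 5 to 7 among the Ba/Sq lines.

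Only differences that were not called changed sign, in log2. In 1 fit of all 24 tumors Aldh1a1 was 0.21 for BURP-16SR against Ba/Sq, and Aldh2 was -0.0099 for BURP-16SR against BURP-19NE. For sex Aldh3b1 was 0.23 on summed counts, 0.32 with C102-M1 moved and 0.15 without both tumors. With 1 tumor left out, Aldh3a1 ran from -0.22 to 0.78 for BURP-19NE, Aldh1a1 from -2.91 to 0.0015 for BURP-16SR and from -2.10 to 0.99 for BURP-24BaSq against BURP-16SR, and Aldh2 from -0.42 to 0.27 for BURP-16SR against BURP-19NE. For sex Aldh3b1 ran from -0.54 to 0.08 and Aldh2 from -0.36 to 0.28. With 1 line left out these were -0.47 to 0.22 and -0.61 to 0.53, and Aldh1a3 was -1.61 to 0.0543.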

Other observations

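The protein-coding genes whose log2 CPM ran most like each member over the 24 tumors were looked up among 14553 genes, as a description of these tumors. The closest to Aldh3b2 were Gm3776 (r = 0.952) and Prom2 (0.941), and the closest to Aldh1a3 were Ly6g6e (0.933) and Rnf144b (0.924). Aldh2 ran with Zbtb20 (0.932) and Atp13a2 (0.899), and Aldh3a2 with Chrnb1 (0.924) and Tmed4 (0.914), both on its own chromosome 11. Aldh3b1 ran with Selp (0.930), an adhesion molecule of endothelium and platelets, and Mfng (0.926). Aldh1a2 ran with Bmper (0.891) and Serpina3n (0.876).

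The closest genes were less close for the other members, whose values spread widely within lines. Aldh1a1 ran with Cat (0.803), which encodes catalase, and Vtcn1 (0.799), Aldh1a7 with Cadps2 (0.868) and Ahdc1 (0.772), and Aldh1l2 with Vps13a (0.812) and Plgrkt (0.811). Aldh3a1 ran with Adh7 (0.822), an alcohol dehydrogenase of stomach and other epithelia that also oxidizes retinol, and with Iqcc (0.813). Among the members themselves Aldh1a2 and Aldh3b1 were most alike (r = 0.781), and Aldh3a2 and Aldh3b2 ran most against each other (-0.836). Aldh1a1 and Aldh1a7 correlated at 0.623, with reads that can be divided between both.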
